A study of Homo sapiens with 6 samples.

Results

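The 10 genes ATF3, ATF4, ATF5, DDIT3, CEBPB, CEBPG, TRIB3, NUPR1, CHAC1 and TRIB1, regulators and close effectors of the integrated stress response, were read in MIA PaCa-2 cells with and without rhCYGB. They were taken by gene symbol and make up 10 of the 35993 genes and 34 of the 81203 transcripts in the tables. All 10 were more abundant in rhCYGB-treated cells, between 1.93-fold (TRIB1) and 99.3-fold (NUPR1), and for none of them did the untreated and treated libraries overlap. Among all genes tested, 39.0% were called higher, and every treated library lay above every untreated one for 39.8%.

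MIA PaCa-2 is an established cell line from a human pancreatic carcinoma. The study asked by RNA-seq how extracellular cytoglobin (CYGB), a hemeprotein, alters these cells. The untreated group (n = 3 libraries) and the rhCYGB group (n = 3 libraries) were both kept in DMEM with 1% FBS, and the second was given 4 µM rhCYGB for 48 h. rhCYGB is the His-tagged human protein produced in E. coli, and the sources used here do not state whether the untreated cells received its buffer. Replicates are not stated to be separate cultures, so p-values measure the spread between these libraries, which may be technical. In bulk RNA, a change in the number of responding cells and a change in RNA per cell cannot be told apart.

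The integrated stress response is a route by which cells answer misfolded protein in the endoplasmic reticulum, amino acid shortage, heme deficit or double-stranded RNA. A kinase specific to each stress phosphorylates the translation factor eIF2α, general protein synthesis slows, and a few mRNAs with upstream open reading frames, ATF4 and ATF5 among them, are translated better. ATF4 protein then raises the transcription of amino acid synthesis and transport genes and of further regulators such as DDIT3, ATF3, TRIB3 and CHAC1. ATF3, ATF4, ATF5, DDIT3, CEBPB and CEBPG are bZIP factors, which bind DNA as pairs held together by a leucine zipper, so that the set of partners present decides which pairs can form. TRIB1 and TRIB3 are pseudokinases, NUPR1 is a small chromatin-associated stress protein, and CHAC1 is an enzyme that degrades glutathione. mRNA levels do not show translation or protein.

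Gene counts per library summed to between 34838399 and 42271299, and 3 counts corresponded to between 0.0669 and 0.0902 CPM (counts relative to the library size, which was scaled by edgeR's TMM factors). Of the 35993 genes, 14728 had enough counts to be tested. With edgeR's quasi-likelihood test, 12.4% of them were called higher and 14.7% lower in rhCYGB cells at a Benjamini-Hochberg adjusted p under 0.05 together with a change of at least 2-fold. Without the limit on fold change, 39.0% were higher and 38.6% lower. Of the 3998 genes called by 2-fold, 45.8% were higher, against 33.9% with total counts and 35.5% with upper-quartile factors, under which the median log2 fold change of all genes was −0.17 and −0.15 instead of −0.0046. The labelled cell line was checked on its markers: KRT8 and KRT18 (epithelial keratins) and VIM were abundant, while the acinar genes PRSS1, CPA1 and CELA3A, the islet genes INS and GCG, the leukocyte gene PTPRC and the endothelial gene PECAM1 had 0 counts in all 6 libraries. Of the stellate cell and fibroblast genes, COL1A1 and PDGFRB had at most 10 counts in any library, and ACTA2 had between 180 and 243.

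All 10 members passed the filter on low counts, and 10 of 10 were called higher at an adjusted p under 0.05, beside 39.0% of all genes tested. At 2-fold or more, 9 of 10 were called, beside 12.4% of all genes, and TRIB1 fell just short. The median log2 fold change of the members was 3.14. Every rhCYGB library lay above every untreated library for 10 of 10 members, which was also the case for 39.8% of all genes tested. The plot of CPM by library shows the 10 genes side by side.

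**Figure D1:**
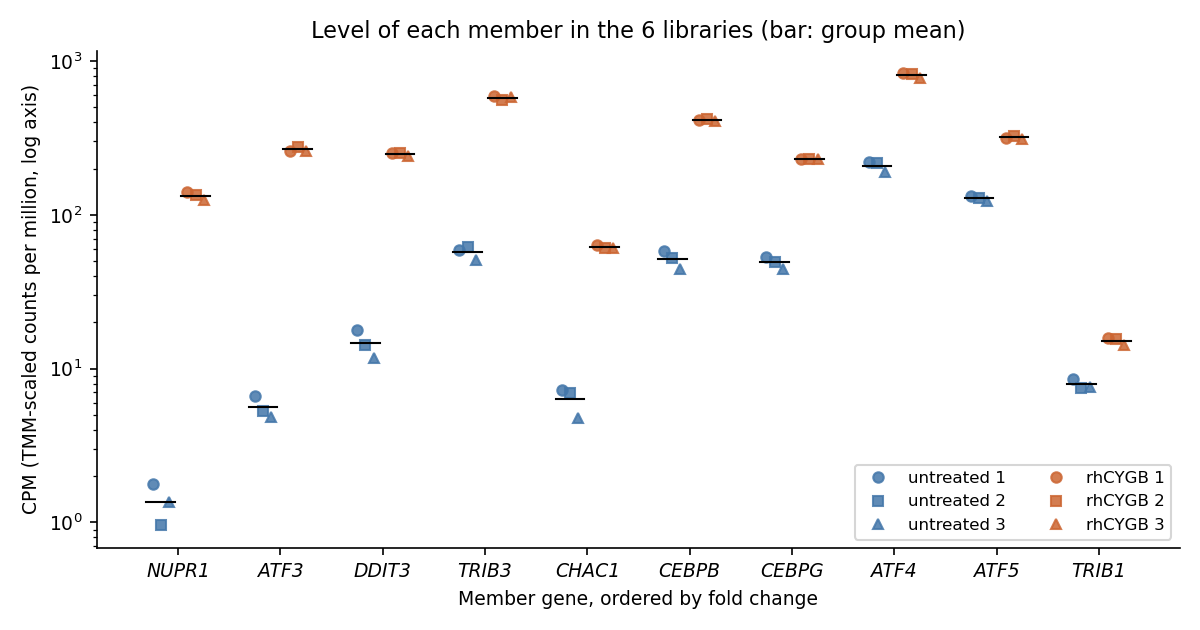
CPM (TMM-scaled, log axis) of the 10 members, ordered by fold change, in the 3 untreated (blue) and 3 rhCYGB (orange) libraries, with a bar at each group mean. All orange points of a gene lie above all its blue points, the gap is widest for NUPR1 (means of 1.36 and 133 CPM) and narrowest for TRIB1 (7.89 and 15.2 CPM).

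ATF4 (gene identifier 468, chromosome 22, 39916564 to 39918691 in the positions of the deposited table, whose genome build is not named) encodes the central factor of the response. Its level was 219, 218 and 189.8 CPM in untreated libraries 1, 2 and 3, and 831, 822 and 773 CPM in rhCYGB libraries 1, 2 and 3. The most abundant of the 10 genes thus rose from an already high level, and its lowest treated library was 3.52 times its highest untreated one. The log2 fold change was 1.95 ± 0.0525 (SE, n = 3 against 3, adjusted p = 5.39e-14, edgeR). How reads shared with the ATF4 pseudogenes were divided is uncertain, and the pseudogene row with most counts, ATF4P3, held at most 35 in any untreated and 126 in any rhCYGB library.

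ATF5 (gene identifier 22809, chromosome 19, 50431959 to 50437193), the bZIP factor closest to ATF4 and known for the mitochondrial stress response, was measured at 132, 128 and 124 CPM in untreated and 316, 327 and 312 CPM in rhCYGB libraries. The 3 libraries of each group were tightly grouped, with standard deviations of 4.29 and 7.95 CPM, and the increase was smaller than that of ATF4. It came to 1.32 ± 0.0389 on the log2 scale (SE, n = 3 against 3, edgeR adjusted p = 1.54e-13). The ATF4 to ATF5 ratio of FPKM (fragments relative to transcript length and mapped reads, the authors' scale per length) was 2.15 in untreated and 3.45 in rhCYGB libraries, a difference of 0.68 on the log2 scale, with no overlap between the groups (two-sided exact permutation test, p = 0.10, the smallest that 3 against 3 allows). ATF5 shares 803 bases of its span with NUP62 and IL4I1, and the use of strand in counting is not stated. NUP62 counts lay between 2863 and 3138 in untreated and between 1926 and 2285 in rhCYGB libraries, the opposite direction to ATF5.

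DDIT3 (gene identifier 1649, chromosome 12, 57910371 to 57914300) encodes CHOP, a bZIP factor that pairs with C/EBP proteins and is known for promoting cell death under lasting stress. It had 17.8, 14.3 and 11.8 CPM in untreated libraries, against 251, 253 and 241 CPM in rhCYGB libraries. All treated libraries were at least 13.5 times the highest untreated one, and the 3 treated libraries lay close together. Its log2 fold change of 4.09 ± 0.089 (SE, n = 3 against 3, adjusted p = 6.25e-15) had rank 60 from the top among the 14728 genes tested. The neighbour MARS1 overlaps DDIT3 by 65 bases and had between 3832 and 4746 counts in untreated and between 6999 and 7852 in rhCYGB libraries.

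ATF3 (gene identifier 467, chromosome 1, 212738676 to 212794119), a repressor or activator depending on its partner and an early responder to many stresses, stood at 6.66, 5.33 and 4.85 CPM in untreated cells. In rhCYGB cells it stood at 262, 275 and 261 CPM. The lowest treated library was 39.1 times the highest untreated one. The log2 fold change was 5.57 ± 0.0722 (SE, n = 3 against 3, adjusted p = 6.64e-17), at rank 28 of all genes tested. JDP2, the bZIP gene most like ATF3, rose less, from 132, 186 and 121 counts to 1051, 849 and 932 counts, with a log2 fold change of 2.89 (adjusted p = 1.85e-12).

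CEBPB and CEBPG encode C/EBP factors that pair with ATF4 and CHOP. CEBPB, which has strong activating domains, was read at 58.2, 52.7 and 44.7 CPM in untreated and 414, 419 and 408 CPM in rhCYGB libraries (gene identifier 1051, chromosome 20, 48807120 to 48809227). CEBPG, a short C/EBP protein that lacks such domains, was read at 52.8, 49.6 and 44.7 CPM in untreated and 229.7, 232 and 229 CPM in rhCYGB libraries (gene identifier 1054, chromosome 19, 33864615 to 33873592). Every treated library was above every untreated one for both genes, and the rise of CEBPB was the larger. CEBPB rose by 3.00 ± 0.0681 (SE, n = 3 against 3, adjusted p = 9.73e-15) and CEBPG by 2.23 ± 0.0512 (adjusted p = 1.05e-14) on the log2 scale. Within libraries, the log2 ratio of CEBPB to CEBPG in FPKM was 1.14, 1.08 and 1.01 in untreated and 1.85, 1.86 and 1.83 in rhCYGB cells. The difference of 0.78 had an exact permutation p of 0.10, again the smallest possible (two-sided). The antisense gene CEBPB-AS1, which overlaps CEBPB, had between 33 and 85 counts in all 6 libraries.

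TRIB3 and TRIB1 belong to one family of pseudokinases and moved by very unequal amounts. TRIB3 (gene identifier 57761, chromosome 20, 361273 to 378203), a target and feedback inhibitor of ATF4 and CHOP, was measured at 59.1, 61.3 and 51.1 CPM in untreated and 596, 558 and 582 CPM in rhCYGB cells. TRIB1 (gene identifier 10221, chromosome 8, 126442600 to 126450647), an adaptor that brings C/EBPα to the COP1 ubiquitin ligase, was measured at 8.51, 7.52 and 7.65 CPM in untreated and 15.9, 15.5 and 14.3 CPM in rhCYGB cells. The groups did not overlap for either gene, but the gap for TRIB1 was narrow, with the lowest treated library at 1.68 times the highest untreated one. TRIB3 rose by 3.34 ± 0.0583 (SE, n = 3 against 3, adjusted p = 7.05e-16) and TRIB1 by 0.95 ± 0.0898 (adjusted p = 1.17e-07). TRIB2, the remaining gene of the family, rose by 0.66 (adjusted p = 4.68e-10), so that TRIB3 alone of the 3 passed 2-fold. The log2 FPKM ratio of TRIB3 to TRIB1 went from 3.39 ± 0.157 to 5.78 ± 0.091 (SD, n = 3 each), a difference of 2.39 (exact permutation test, two-sided, p = 0.10, the smallest possible). Without untreated library 1, the log2 fold change of TRIB1 was 1.00 and the gene was called at 2-fold.

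NUPR1 (gene identifier 26471, chromosome 16, 28544029 to 28550295) had the largest fold change of the 10. Only 66, 43 and 55 counts were read in untreated libraries 1, 2 and 3, and 5248, 4453 and 4573 counts in rhCYGB libraries 1, 2 and 3, which is 1.77, 0.96 and 1.35 CPM against 141, 134 and 124 CPM. A gene with few reads in untreated cells was thus well detected in every treated library, the lowest of which was 70.0 times the highest untreated one. Its log2 fold change was 6.63 ± 0.106 (SE, n = 3 against 3, adjusted p = 3.33e-16, rank 18 of all genes tested). On the log2(FPKM + 1) scale, whose added 1 exceeds the untreated level of this gene, the difference was 4.14. The related gene NUPR2 had 0 counts in all 6 libraries.

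CHAC1 (gene identifier 79094, chromosome 15, 41245669 to 41248710) was read at 7.25, 6.98 and 4.81 CPM in untreated and 63.7, 60.7 and 60.6 CPM in rhCYGB libraries. The treated libraries were close together, and the third untreated library was lowest. The log2 fold change was 3.28 ± 0.0982 (SE, n = 3 against 3, adjusted p = 1.76e-13). CHAC2, which encodes the constitutive enzyme of the same activity, fell by 0.30 on the log2 scale (adjusted p = 0.0106), the opposite direction to CHAC1.

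The untreated libraries ranked alike across the members. Untreated library 1 was the highest of its group in CPM for 9 of 10 members and library 3 the lowest for 8 of 10, whereas among all genes tested library 1 was highest for 33.8% and library 3 lowest for 35.8%. In the rhCYGB group, library 3 was lowest for 9 of 10 members, against 29.9% of all genes, and libraries 1 and 2 were each highest for 5. The coefficient of variation had a median over the members of 11.3% in untreated and 2.95% in rhCYGB libraries. It was not summarized for all genes, so whether this difference is particular to the members is not known. In untreated libraries the coefficient was 29.9% for NUPR1, 21.1% for CHAC1, 20.8% for DDIT3, 16.6% for ATF3, 13.1% for CEBPB and 8.04% for ATF4. The cause of this spread was not tested. Leaving out any 1 library kept all 10 calls.

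Levels were compared between genes per length, in the authors' FPKM. In untreated cells the order was ATF4 (124 FPKM), ATF5 (57.4), CEBPB (25.9), TRIB3 (21.5), DDIT3 (13.7), CEBPG (12.2), CHAC1 (3.91), ATF3 (2.67), TRIB1 (2.04) and NUPR1 (0.236 FPKM). The ranges of the libraries overlapped between CEBPB and TRIB3, between DDIT3 and CEBPG, and between CHAC1 and ATF3, so these neighbours were not apart by more than their spread, although CEBPB was above TRIB3 and CHAC1 above ATF3 within each library. In rhCYGB cells the order was ATF4 (440.5 FPKM), DDIT3 (219), TRIB3 (194), CEBPB (185), ATF5 (128), ATF3 (112), CEBPG (51.3), CHAC1 (33.9), NUPR1 (20.8) and TRIB1 (3.52 FPKM), where the ranges overlapped between TRIB3 and CEBPB alone. DDIT3 thus overtook TRIB3, CEBPB and ATF5, ATF5 fell behind DDIT3, TRIB3 and CEBPB, and ATF4 was first in both groups. The transcripts of NUPR1 are listed at 5291 and 5345 bases, the longest of the members, which lowers its value per length beside its CPM. Levels per kilobase recomputed from the counts were higher than the deposited FPKM for all 10 members in both groups, for example 132.9 against 124 for ATF4 in untreated and 529.9 against 440.5 in rhCYGB cells. The recomputed levels divide by the TMM-scaled library size and FPKM by mapped reads, so the scales are unlike. The TMM factors were 1.06 in untreated and 0.93 to 0.96 in rhCYGB libraries. A factor above 1 lowers the recomputed level and a factor below 1 raises it. Why the recomputed level was higher in both groups was not tested.

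**Figure D2:**
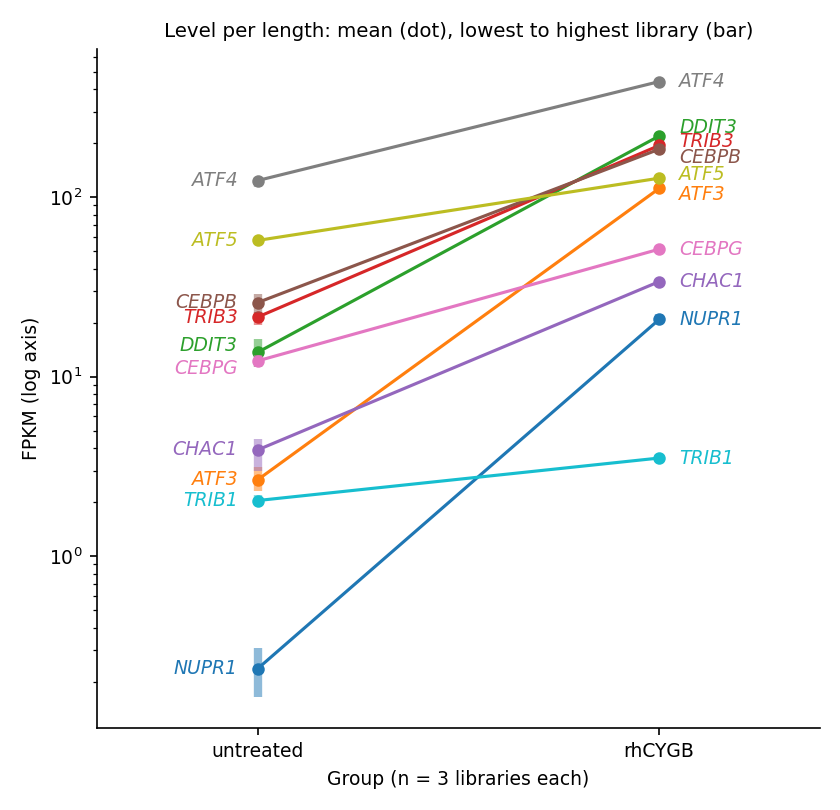
Mean FPKM (log axis) of the 10 members in untreated and rhCYGB cells (n = 3 libraries each), joined by a line for each gene, with a bar from the lowest to the highest library. ATF4 is first in both groups at 124 and 440.5 FPKM, DDIT3 crosses TRIB3, CEBPB and ATF5, ATF3 crosses CHAC1 and CEBPG, and NUPR1 rises from the last place past TRIB1.

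Since bZIP factors act in pairs, the 6 bZIP members were set beside the other genes of the family. Over 53 bZIP genes, the 6 members took 31.1, 30.6 and 29.0% of the summed FPKM in untreated libraries and 47.8, 49.0 and 47.3% in rhCYGB libraries. The share was larger in every treated library, although the other 47 genes together also went up, from between 531 and 552 FPKM to between 1191 and 1254 FPKM. ATF4 was the most abundant bZIP gene in all 6 libraries. ATF3 moved from between rank 33 and 37 to rank 7, DDIT3 from between rank 13 and 19 to rank 3 and CEBPB from between rank 10 and 12 to rank 5, while ATF5 went from rank 3 to rank 6.

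Of the 47 other bZIP genes, 44 were tested, 21 were called higher by 2-fold or more and 1 lower, beside 12.4% and 14.7% of all genes, and their median log2 fold change was 0.93. Without the limit on fold change 32 were higher, 5 lower and 7 not called, beside 39.0% higher and 38.6% lower among all genes. The largest rises were those of MAFF, a small MAF protein (3.01, adjusted p = 1.91e-16), JDP2 (2.89) and XBP1, the factor of the IRE1 arm of the endoplasmic reticulum response (2.86, adjusted p = 9.80e-16). CREB3L4 fell by 0.99 (adjusted p = 1.22e-05). The 21 higher genes became 13 on the log2(FPKM + 1) scale, and the lower ones numbered between 0 and 3 over the alternatives that kept the 2-fold limit. In the plot of the family, ATF3 and DDIT3 had the highest log2 fold changes, and ATF4 and ATF5 lay in the middle of those that rose.

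**Figure D3:**
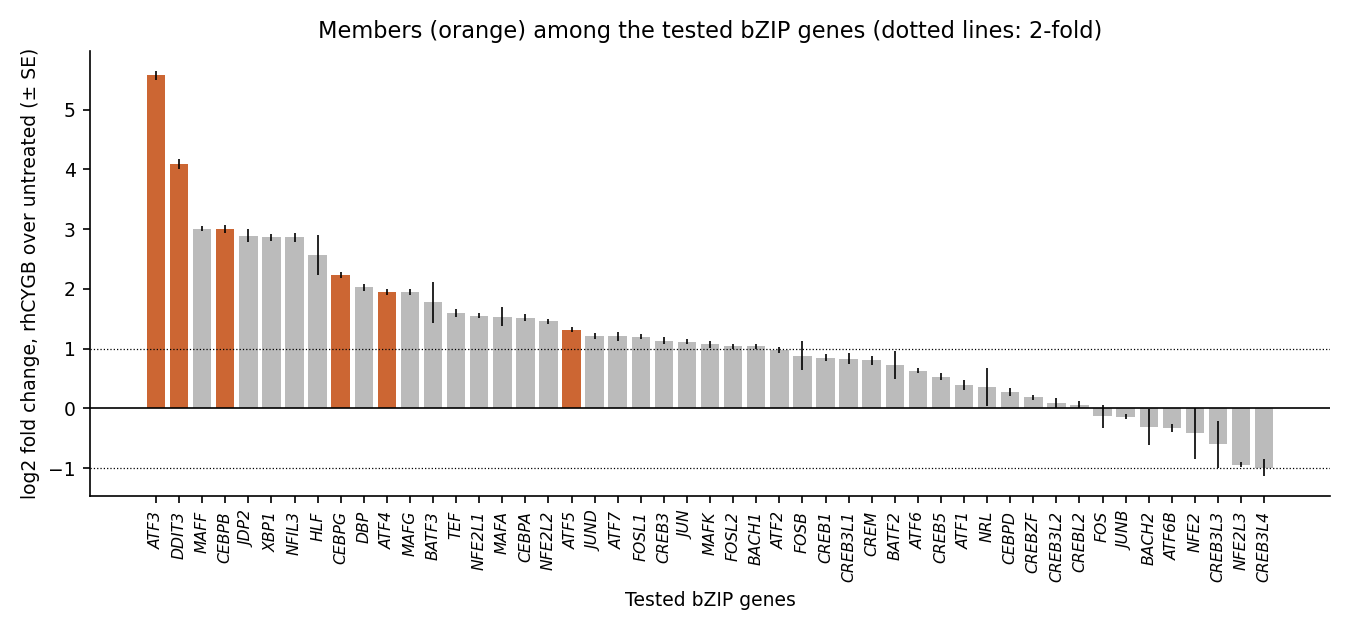
Log2 fold change (rhCYGB over untreated, ± SE, edgeR) of all but 1 of the 50 tested bZIP genes, with the 6 members in orange and dotted lines at 2-fold. ATF3 (5.57) and DDIT3 (4.09) stand at the left end, and CREB3L4 (−0.99) at the right.

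The transcript table divides the reads of each gene among its RefSeq isoforms, as assigned by the authors' software. Of the 34 transcripts of the members, 2 had 0 counts in all libraries and 26 were tested, of which 19 were called higher and 0 lower, beside 15.1% of the 32577 transcripts tested that were called higher and 14.8% lower. By 2-fold or more 18 were called, beside 8.62% of all transcripts. For 10 of 10 members the most abundant transcript was the same in all 6 libraries. Shares within a gene were tested with edgeR's diffSpliceDGE for 25 transcripts of 9 members, and 1 was called at an adjusted p under 0.05, beside 2.4% of 24967 transcripts, while 4 had an unadjusted p under 0.05.

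The called share was that of NM_001195055, an isoform of DDIT3, with 0, 0 and 0 counts in untreated and 110, 116 and 152 counts in rhCYGB libraries. It was at least 136-fold higher, taking 3 counts over the untreated group as the floor, and made up 1.42% ± 0.267 (SD, n = 3) of DDIT3 transcript counts in rhCYGB cells. Its adjusted p for the share was 0.0271 and was lost in each of the 6 fits that left out 1 library (0.0715 to 0.126). The bulk of DDIT3 came from NM_004083, with 319, 370 and 310 counts in untreated and 7238, 6385 and 6739 counts in rhCYGB cells, or 56.7% ± 8.28 against 76.4% ± 1.06 of the gene (adjusted p of the share 0.694). NM_001195056 made up 33.8% ± 6.39 in untreated and 13.4% ± 1.26 in rhCYGB cells, and its share passed the test at an unadjusted p of 0.00575 but not after adjustment (0.148, edgeR), unless transcripts were kept only with at least 10 counts in every library (0.0122).

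For ATF3, NM_001674 held 86.3, 90.8 and 95.5% of the transcript counts in untreated and 80.9, 83.9 and 80.3% in rhCYGB libraries. The isoform NM_001040619 held 1.61, 5.02 and 3.03% against 13.9, 12.0 and 14.3%, from 4, 12 and 6 counts to 1355, 1098 and 1376 counts. Its share was thus above every untreated library in every treated one, with an adjusted p of 0.0917 (diffSpliceDGE), and of 0.0363 without untreated library 2. As transcripts, both rose, NM_001674 by 5.34 ± 0.109 (adjusted p = 7.37e-06) and NM_001040619 by 7.55 ± 0.369 (adjusted p = 8.36e-05) on the log2 scale.

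NUPR1 had NM_012385 at 62, 28 and 55 counts in untreated and 3517, 2945 and 2881 in rhCYGB libraries. NM_001042483 had 4, 15 and 0 counts in untreated and 1731, 1508 and 1692 in rhCYGB libraries. The treated libraries agreed on a share of 34.6% ± 2.11 for the second isoform, while the untreated share of 13.6% ± 18.6 rested on very few counts (SD, n = 3, edgeR adjusted p of the share 0.581). ATF4 had NM_182810 at 67.4% ± 1.95 in untreated and 76.7% ± 7.30 in rhCYGB cells, where the second treated library stood apart with 4069 counts of NM_001675 beside 8601 and 7740 in the others (edgeR adjusted p of the share 0.519). Both ATF4 isoforms rose, by 2.06 (adjusted p = 8.57e-05) and 1.37 (adjusted p = 0.0111, edgeR). CEBPG, TRIB3, ATF5, CEBPB and CHAC1 each had 1 isoform with a mean of 88.5% or more of the counts in both groups, and TRIB1 had all its counts on NM_025195. The CEBPB isoforms NM_001285878 and NM_001285879 are listed with the same position and length and cannot be told apart.

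**Figure D4:**
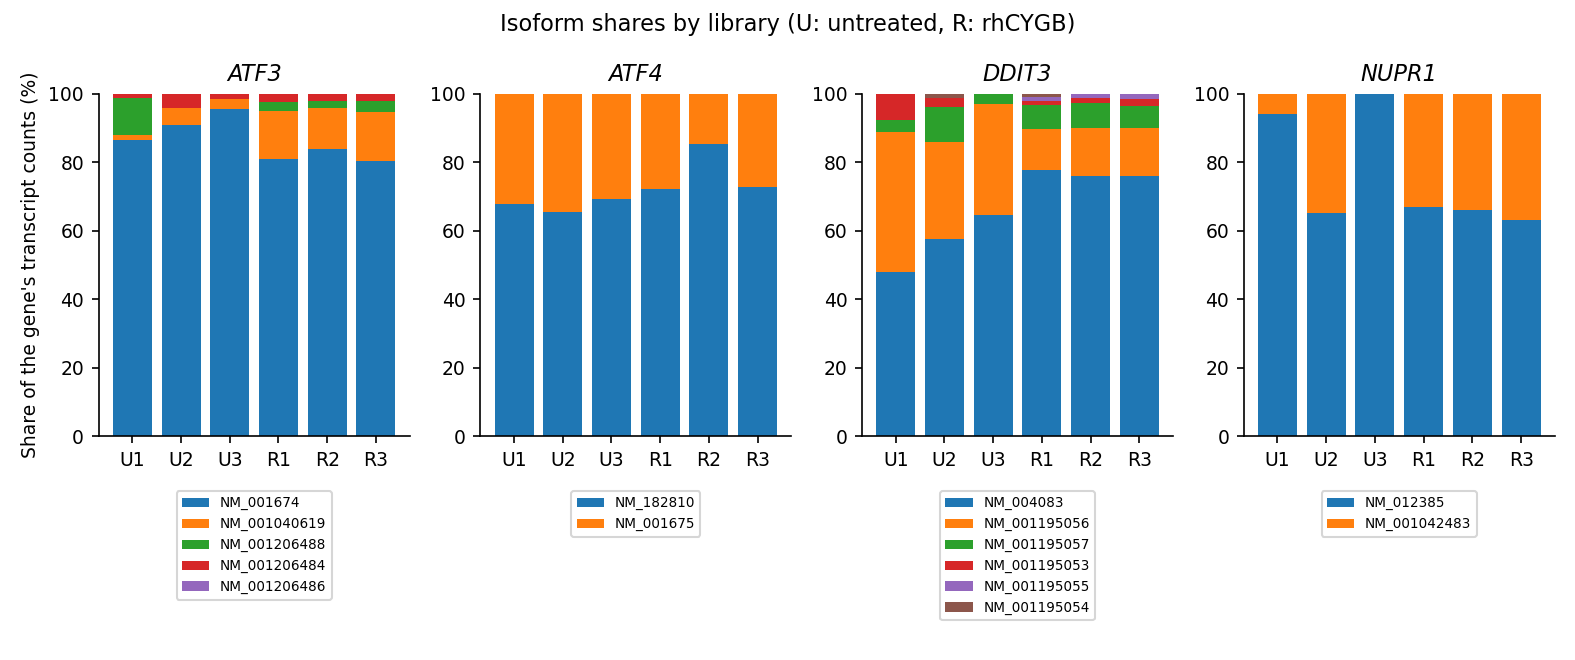
Share of each isoform in the transcript counts of ATF3, ATF4, DDIT3 and NUPR1 (percent, stacked to 100%) in untreated (U) and rhCYGB (R) libraries 1 to 3. The lead isoform is the same in all 6 libraries of each gene, NM_001040619 of ATF3 takes 12.0 to 14.3% in the treated libraries, and the untreated shares of NUPR1 scatter.

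The promoters of the members were searched for 4 motifs, since the 10 genes rose together and ATF4 is known to act through a composite element joining half-sites of C/EBP and ATF factors. RefSeq promoter windows (GRCh38.p14, 250 bases before to 50 after a start) were matched by symbol for 8 members, with 17 windows in all. NUPR1 had no entry and TRIB1 was not used. The core of the composite element, TGATGNAA on either strand, was in 3 of the 17 windows, 1 each of ATF3, CEBPG and CHAC1. It was in 3.62% of all 35116 windows. Several windows of the same gene overlap. By gene, the core was in a window of 3 of the 8 members and of 4.46% of all 27305 genes with a window. The cAMP response element TGACGTCA, the C/EBP palindrome TTGCGCAA and the endoplasmic reticulum stress response element were in 0 of the 17 windows, and in 1.85%, 0.151% and 0.0769% of all windows. No match therefore overlapped another of the motifs searched. The 3 stretches with a match are given here on the strand of the gene, which is the plus strand for each, with the match in capitals, to show how the element sits in each.
ATF3: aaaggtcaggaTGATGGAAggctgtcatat
CEBPG: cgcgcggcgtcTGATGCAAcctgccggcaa
CHAC1: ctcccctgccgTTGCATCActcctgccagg

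The CEBPG stretch is chr19:33374060-33374089 (GRCh38.p14), and its match lay at −42 to −35 from the start site. The CHAC1 stretch is chr15:40953251-40953280, with the match at −209 to −202 and as the reverse complement. The ATF3 stretch is chr1:212565205-212565234, with the match at −191 to −184 from a far upstream start. That start is 73 bases from the start that GENCODE gives for NM_001030287, an ATF3 isoform with 0 counts in all 6 libraries. By GENCODE, NM_001674, the lead isoform of ATF3, starts 6348 bases upstream of the start of the second ATF3 window, so that start was not covered. NM_001806 held 99.1% of CEBPG transcript counts in rhCYGB cells. The start that GENCODE gives for it lies 783 bases upstream of the start of the window with the match. Deposited starts are not in GRCh38 and were not placed on these windows, so which CEBPG window covers its deposited start was not settled. The matches are descriptions of letters in these windows, and no binding was measured.

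The genes above and below the members in the pathway were read from lists of names. Of 11 genes for the eIF2α kinases, their regulators, eIF2α itself and the subunits of its phosphatase, 2 were called higher by 2-fold and 0 lower, beside 12.4% and 14.7% of all genes, with a median log2 fold change of 0.27. Both were regulatory subunits of the phosphatase that ends the response, PPP1R15A, also called GADD34 (3.84 ± 0.0614, SE, adjusted p = 3.33e-16, edgeR), and PPP1R15B (1.56, adjusted p = 1.01e-13). EIF2S1, which encodes eIF2α, rose by 0.52 (adjusted p = 3.62e-09). The kinases EIF2AK4, the amino acid sensor GCN2, and EIF2AK1, the heme sensor HRI, fell by 0.35 (adjusted p = 2.68e-06) and 0.31 (adjusted p = 1.55e-06). The kinase EIF2AK3 rose by 0.27 (adjusted p = 0.00194, edgeR), and the kinase EIF2AK2 was not called (0.064, adjusted p = 0.219, edgeR). Small changes such as these depend on the scaling. With total counts the median log2 fold change of all genes was −0.17 instead of −0.0046. By adjusted p alone 6 of the 11 were higher and 4 lower, beside 39.0% and 38.6% of all genes.

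Of 41 known ATF4 targets other than the members, 40 were tested, and 32 were called higher by 2-fold and 0 lower, beside 12.4% and 14.7% of all genes. Their median log2 fold change was 1.65, and by adjusted p alone 38 were higher and 2 lower, beside 39.0% and 38.6% of all genes. GDF15, a secreted stress cytokine, rose by 5.58 (adjusted p = 6.64e-17), VEGFA, an angiogenic growth factor, by 3.76 (adjusted p = 1.63e-16) and DDIT4, an inhibitor of mTORC1, by 3.51 (adjusted p = 8.77e-17). The proline synthesis enzyme ALDH18A1 and the tryptophanyl-tRNA synthetase WARS1 fell, by 0.35 (adjusted p = 2.50e-06) and 0.22 (adjusted p = 1.11e-05). The highest fitted value in the list, that of FGF21, is not a bound, since the gene had 0 counts in all untreated libraries. It was at least 34.5-fold higher with 3 counts over the untreated group as the floor, and the list's median was 1.65 with that bound too.

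Of 6 targets of CHOP, 5 were called higher by 2-fold, beside 12.4% of all genes, with a median log2 fold change of 2.32. Beside PPP1R15A these included GADD45A, a growth arrest gene (3.52, adjusted p = 8.73e-15), and BBC3, which encodes the pro-apoptotic protein PUMA (2.53, adjusted p = 7.37e-15). The endoplasmic reticulum has 2 further stress arms, run by ATF6 and IRE1. Of 15 genes of these arms, 6 were called higher and 1 lower by 2-fold, beside 12.4% and 14.7% of all genes. By adjusted p alone 7 were higher and 6 lower, shares near the 39.0% and 38.6% of all genes. The median log2 fold change was 0.05, and it was below 0 with other scalings, −0.12 with total counts and −0.09 with upper-quartile factors. ERN1, the IRE1 sensor (3.02, adjusted p = 8.93e-14), the chaperone HSPA5 (2.15, adjusted p = 1.85e-16) and its partner DNAJB9 (1.90, adjusted p = 2.04e-12) rose, whereas CRELD2 fell by 1.72 (adjusted p = 3.47e-12) and SDF2L1 by 0.96 (adjusted p = 1.66e-06). The plot of the lists sets these values side by side, and no difference between lists was tested.

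**Figure D5:**
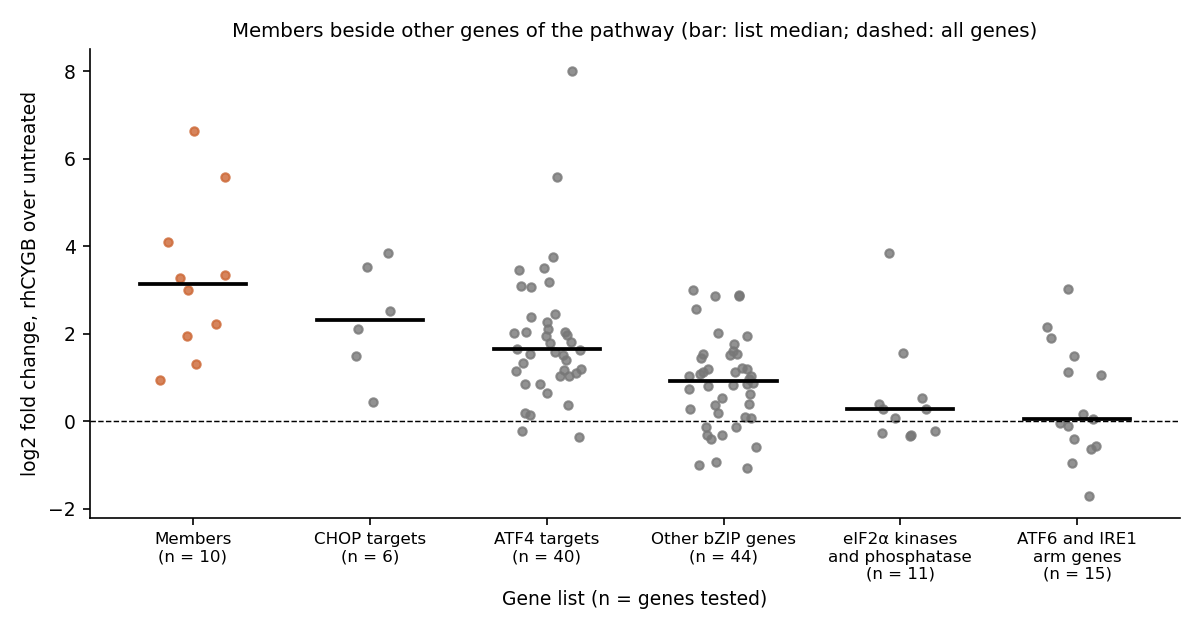
Log2 fold change (rhCYGB over untreated, edgeR) of each tested gene in the list of members (orange) and in 5 other lists (grey), with a bar at each list's median and a dashed line at the median of all 14728 genes. The medians run from 3.14 for the members and 2.32 for CHOP targets to 0.27 for the eIF2α kinase and phosphatase genes and 0.05 for the ATF6 and IRE1 arms, and the highest point among ATF4 targets is FGF21, which had 0 counts in untreated cells.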

How the data were processed

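Gene expression was read by RNA-seq in 3 untreated and 3 rhCYGB libraries of MIA PaCa-2 cells, prepared with a stranded mRNA kit. Per the submitters' processing notes and the supplemental methods, reads were checked with FastQC 0.11.7, trimmed, mapped with HISAT2 2.1.0 and assembled with StringTie 2.1.3b. The authors deposited read counts per gene and per transcript as whole numbers without normalization. The authors deposited FPKM values, scaled to transcript length and mapped fragments. The 6 TPM columns per table deposited by the authors were not used. The processing notes name mm10, a mouse build, although the genes are human. The deposited positions are not those of GRCh38, since they reach 249231298 on chromosome 1, where the last GRCh38 gene ends at 248937099. No human build, and no use of strand in counting, is given in the sources used here.

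Gene and transcript counts were tested over all 6 libraries with edgeR 4.0.16 in R 4.3.3 (filterByExpr, TMM, glmQLFit and glmQLFTest, no block), with Benjamini-Hochberg adjustment over all features tested. Each SE of a log2 fold change was derived as the absolute change over the square root of the quasi-likelihood F statistic. Isoform shares were tested with diffSpliceDGE, which does not model the division of reads among isoforms. Single ratios were compared with the exact permutation test of SciPy 1.17.1. The study's methods name no count model. The fits were also run on simulated counts with known changes, and the outcome is not given here. Alternatives were DESeq2 1.42.0, limma 3.58.1 on log2(FPKM + 1) and log2(FPKM + 0.1), other scalings and filters, gene counts summed from transcripts, a block for the replicate number, and fits without each library in turn. The members, lists and motifs were chosen with earlier results of these data known. From each list the text names the 3 largest rises and 2 largest falls at an adjusted p under 0.05 and at least 1 CPM in the higher group, and every tested paralog. FGF21, EIF2AK2, EIF2AK3, the ATF4 pseudogenes, overlapping genes and NUPR2 were named after their values were seen. The values of 1 bZIP gene are not reported here. Floors of 3 counts cover counting error only. Libraries of a group differed by more than counting error (chi-square over degrees of freedom of 4.67 to 6.61).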

Additional observations from a re-analysis of the deposited data

How the results depend on the processing

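All 10 members were called higher under each of 16 alternatives, with log2 fold changes of 4.14 to 6.85 for NUPR1, 4.95 to 5.70 for ATF3 and 0.57 to 1.00 for TRIB1. Without 1 library, 9 to 10 members passed 2-fold, 21 to 22 other bZIP genes were higher and 0 to 2 lower, 1 to 2 genes of the ATF6 and IRE1 arms were lower, and 0 to 1 isoform share of a member was called. Lower bZIP genes numbered 2 with DESeq2 size factors, the DESeq2 test, at least 10 counts in every library or log2(FPKM + 0.1), 3 with upper-quartile factors or total counts, and 0 with log2(FPKM + 1), which also left 13 higher. Lower genes of the ATF6 and IRE1 arms numbered 2 with upper-quartile factors, total counts or limma on either FPKM scale. Without the limit on fold change, 32 bZIP genes were higher and 5 lower, 6 genes of the kinase list higher and 4 lower, 2 ATF4 targets lower, 6 genes of the ATF6 and IRE1 arms lower, and of all genes 5742 higher and 5685 lower. With limma on log2(FPKM + 1), 805 of all genes were higher and 1172 lower by 2-fold. The median log2 fold change of all genes, −0.0046, was 0.0065 with at least 10 counts in every library, and between −0.018 and 0.0029 without 1 library, above 0 without untreated library 1 (0.00033) or 2 (0.0029). Where fewer samples or another scale moved a value, the cause was not tested.

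Deviations of same-numbered libraries had correlations of −0.048, 0.0072 and 0.0055 over genes, and those of differently numbered libraries lay between −0.055 and 0.054. Whether same-numbered libraries share a culture or batch is not stated and was not tested. With the number as a block, 9 members passed 2-fold as before, 1817 of all genes were higher and 2161 lower, 15 transcripts of members were higher by 2-fold instead of 18, and 0 isoform shares were called, with an adjusted p of 0.132 for NM_001195055. The untreated counts of NUPR1 and of minor isoforms are too few to place their shares.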
